A study of Mus musculus with 18 samples.

Results

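Classical interferon-stimulated genes were followed in the mouse substantia nigra, the midbrain region that holds the dopaminergic neurons projecting to the striatum. The 46 genes were taken by symbol from a fixed list of interferon-induced genes that leaves out antigen presentation, and all 46 were found among the 55269 named genes of the deposited table. Poly-A RNA was sequenced from 18 mice, 6 in each of 3 groups, at 3 months of age. The intact mice are labelled WT and no virus is named for them. The AAV-GFP mice had received an adeno-associated virus (AAV) for green fluorescent protein and the AAV-SIRT3 mice an AAV for SIRT3, a deacetylase of mitochondria, and their labels call them overexpressing. The species of the SIRT3 sequence is not given in the sources used here. In both virus groups the tissue was taken a month after the virus. AAV-SIRT3 against AAV-GFP therefore compares mice that all had a virus, but not the same one. Effects of the transgene and of any other difference between the 2 viruses, such as dose, cannot be told apart there. In the comparisons with intact mice the effects of virus and transgene cannot be told apart. The serotype, promoter, dose and injection site of the viruses, the strain and the sex of the mice are not given in the sources used here.

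Type I interferons are secreted proteins that bind the receptor pair IFNAR1 and IFNAR2 on almost every cell type, and the kinases JAK1 and TYK2 then phosphorylate STAT proteins, STAT2 among them. With IRF9 these form the factor ISGF3, which binds the interferon-stimulated response element (ISRE) in the promoters of antiviral genes, and IRF7, itself induced, feeds back on interferon production. The products sense foreign nucleic acid, block viral translation, degrade RNA or modify proteins with ISG15. In brain, microglia, astrocytes, endothelium and neurons can all carry this response.

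Depth ran from 47.2 to 64.7 megareads assigned to genes per library, and the group means differed by less than the SD within groups. Values below are normalised reads, that is reads divided by the size factor of the library. The mean of the mouse gene Sirt3 was 1824 ± 66.3 normalised reads in the 6 intact mice, 1775 ± 92.4 with AAV-GFP and 1937 ± 79.4 with AAV-SIRT3 (SD). As the species of the delivered SIRT3 sequence is not given, its reads may not be counted under this gene. The log2 fold change of mouse Sirt3 in AAV-SIRT3 against AAV-GFP was 0.13 ± 0.042 (SE), with a limma adjusted p of 0.183, and the groups overlapped. A rise of this gene in the libraries labelled AAV-SIRT3 thus did not pass the test. Dopaminergic neuron markers were well detected, their summed level running from 35207 to 54130 normalised reads over the 18 libraries. In bulk tissue, fewer cells of a type and less RNA per cell cannot be told apart.

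AAV-SIRT3 replicate 6 stood apart in the interferon genes. It was the highest library of its group for 43 of the 46 genes, so the highest AAV-SIRT3 value of a gene below is its value except for Herc6, Ifit2 and Cmpk2, and for 35 of them it exceeded 1.5 times the median of the other AAV-SIRT3 libraries. Across all tested genes, 7.58% did so. Its ratio to that median was 5.81 for Mx1, 5.04 for Oasl1 and 4.80 for Ifi27l2a, against 1.19 for Ifit2 and 1.02 for Cmpk2. Replicate 4 was the second highest library for 30 of the genes, and replicate 5 the lowest for 20. Averaged over the 46 genes, the log2 difference from the intact mean was 0.46, 0.26, 0.38, 0.77, 0.17 and 1.47 in AAV-SIRT3 replicates 1 to 6. The same average lay between -0.22 and 0.27 in the AAV-GFP libraries and between -0.11 and 0.15 in the intact libraries. AAV-SIRT3 replicates 2 and 5 thus lay within the AAV-GFP range, and the other 4 above it.

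**Figure D1:**
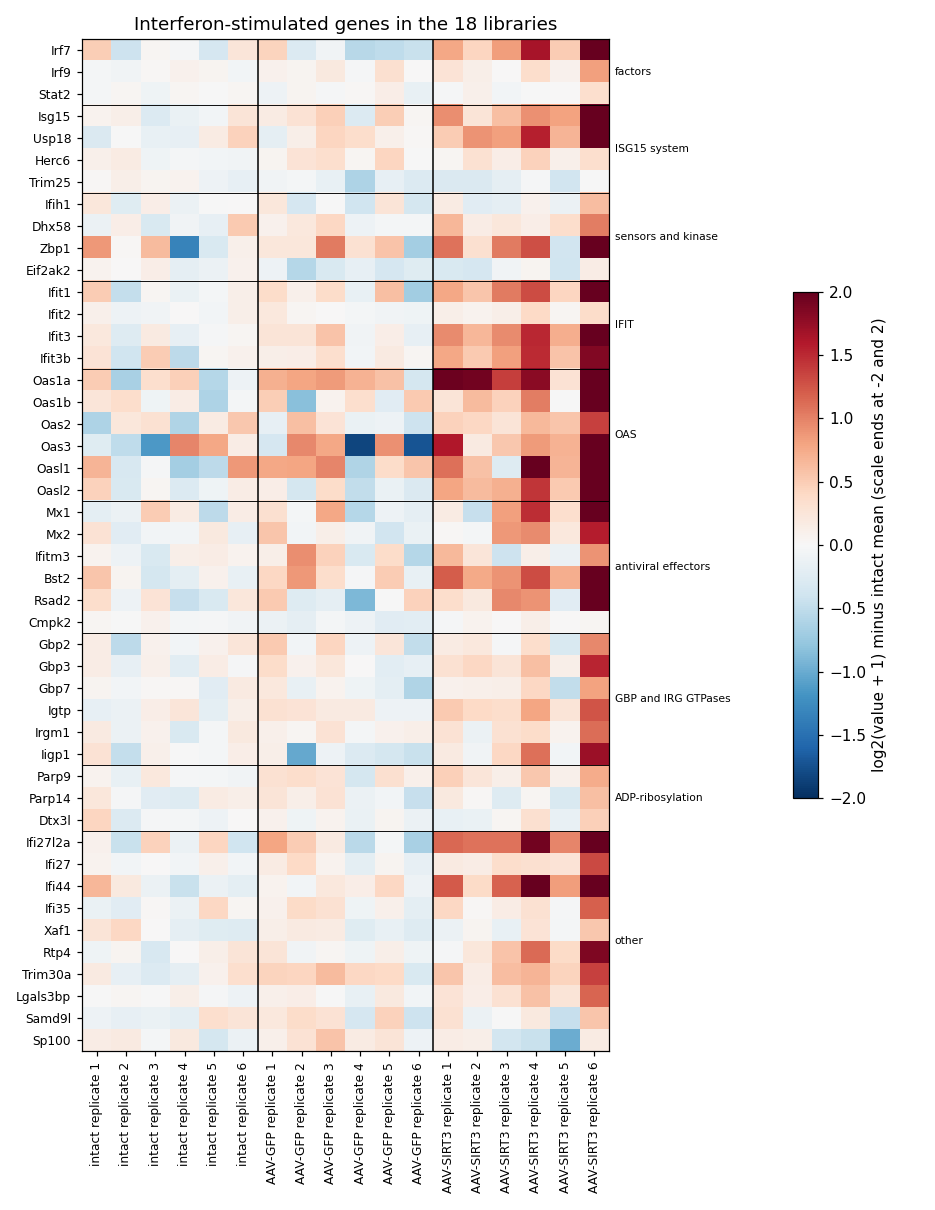
Colour gives the log2 difference of each gene (vertical axis, grouped by role) from its intact mean in each of the 18 libraries (horizontal axis, grouped). The AAV-SIRT3 block is the warmest, and its replicate 6 is the highest AAV-SIRT3 library for 43 of 46 genes.

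Nearly all interferon genes had a higher mean in AAV-SIRT3 than in AAV-GFP libraries, but few passed the test over all genes. Oasl2, a relative of the oligoadenylate synthetases, and Ifit3, which binds viral RNA together with IFIT1, rose, and none fell (limma, 19442 genes tested, adjusted p under 0.05). Those are 2 of 46, where 0.036% of all tested genes were called higher and 0.0772% lower. At an unadjusted p under 0.05, 24 of the 46 were higher and 1 lower, against 8.13% and 7.12% of all tested genes. The log2 fold change was above 0 for 44 of 46, all but Samd9l (-0.02, but 0.0111 with quantile scaling) and Sp100 (-0.45), and above 0.5 for 21. Over all tested genes those shares were 48.6% and 1.86%. The median log2 fold change of the 46 was 0.45, with quartiles of 0.16 and 0.85, and that of all tested genes was -0.004. The calls of Oasl2 and Ifit3 were each lost on leaving out any 1 of 13 libraries, intact replicates 2 to 6, AAV-GFP replicates 1, 3, 4, 5 and 6 and AAV-SIRT3 replicates 3, 4 and 5. Over the 18 such fits the limma adjusted p ranged from 0.0197 to 0.106 for Oasl2 and from 0.0169 to 0.107 for Ifit3. Without AAV-SIRT3 replicate 6 the median was 0.28, and both calls were kept, with log2 fold changes of 0.94 and 0.79, where 0.0257% of all tested genes were called higher and 0.0874% lower.

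The number of genes called in this comparison moved with the method. On the recovered reads, edgeR called 4 higher, Irf7, Ifit3, Oasl2 and Ifi44, where it called 0.0463% of all tested genes. DESeq2 gave an adjusted p for 44 of the 46 and called 15 of them higher, where it called 0.866% of all genes with such a p. Those 15 were Irf7, Isg15, Usp18, Ifit1, Ifit3, Ifit3b, Oas1a, Oasl2, Bst2, Cmpk2, Igtp, Iigp1, Ifi27l2a, Ifi44 and Rtp4. In limma, 11 were called when AAV-GFP replicate 2 was left out, in place of 2, but calls over all genes grew with them, to 458 of 19442 higher in place of 7. Neither Oasl2 nor Ifit3 was called, and so 0 of the 46, when no filter or a mean of at least 50 chose the genes tested or when only the 2 groups were fitted. For 6 genes, Usp18, Ifit3, Ifit3b, Oasl2, Cmpk2 and Ifi27l2a, every AAV-SIRT3 library lay above every AAV-GFP library, against 0.37% of all tested genes.

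No interferon gene passed the test in AAV-GFP against intact. None of the 46 was called in limma, where 0.823% of all tested genes were called higher and 1.02% lower. At an unadjusted p under 0.05, 0 were higher and 3, Trim25, Eif2ak2 and Cmpk2, were lower, against 9.59% and 9.48% of all tested genes. By edgeR 0 were called, where 0.936% of all tested genes were higher and 1.02% lower. DESeq2 called 1 of the genes with an adjusted p, Cmpk2, as lower, where it called 3.45% of all such genes lower. The log2 fold change was above 0 for 33 of 46, against 9761 of 19442 tested genes. The median log2 fold change was 0.06, with quartiles of -0.02 and 0.14 and extremes of -0.34 for Iigp1 and 0.54 for Oas1a.

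Against intact libraries, 19 of the 46 genes rose in AAV-SIRT3 and none fell (limma). Over all tested genes 11.3% were called higher and 10.3% lower. The log2 fold change was above 0 for 43 of 46 and above 0.5 for 24, against 49.1% and 3.01% of all tested genes. At an unadjusted p under 0.05, 31 were higher, against 17.9%. On the recovered reads edgeR called 26 higher, against 12% of all tested genes, and DESeq2 28 of the 45 with an adjusted p, against 12.6%. By role, the called genes were 2 of 3 factors, 2 of 4 genes of the ISG15 system, 3 of 4 IFIT genes, 2 of 6 OAS genes, 1 of 6 antiviral effectors, 2 of 6 interferon-induced GTPases, 1 of 3 genes of ADP-ribosylation and 6 of 10 others. The 4 sensors had no call in limma, 2 at an unadjusted p under 0.05, 1 call in edgeR and 2 in DESeq2. The median log2 fold change over the 46 was 0.54, with quartiles of 0.19 and 1.02, and -0.005 over all tested genes. Without AAV-SIRT3 replicate 6 the median was 0.33 and 16 genes were called, where 9% of all tested genes were called higher and 8.32% lower. The 3 lost were Irf9 (adjusted p 0.101), Parp9 (0.0975) and Rtp4 (0.0511) in limma. Without that library the log2 fold change fell by over 1.5 times for 4 of the 19, Irf9 (0.28 to 0.17), Gbp3 (0.53 to 0.34), Ifi27 (0.43 to 0.26) and Rtp4 (0.69 to 0.46). For 9 genes, Usp18, Ifit3, Ifit3b, Oasl2, Bst2, Igtp, Ifi27l2a, Ifi27 and Lgals3bp, every AAV-SIRT3 library lay above every intact library, against 5.01% of all tested genes. Both comparisons that hold AAV-SIRT3 use the same 6 AAV-SIRT3 libraries, so their values are given side by side and not as support for each other.

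**Figure D2:**
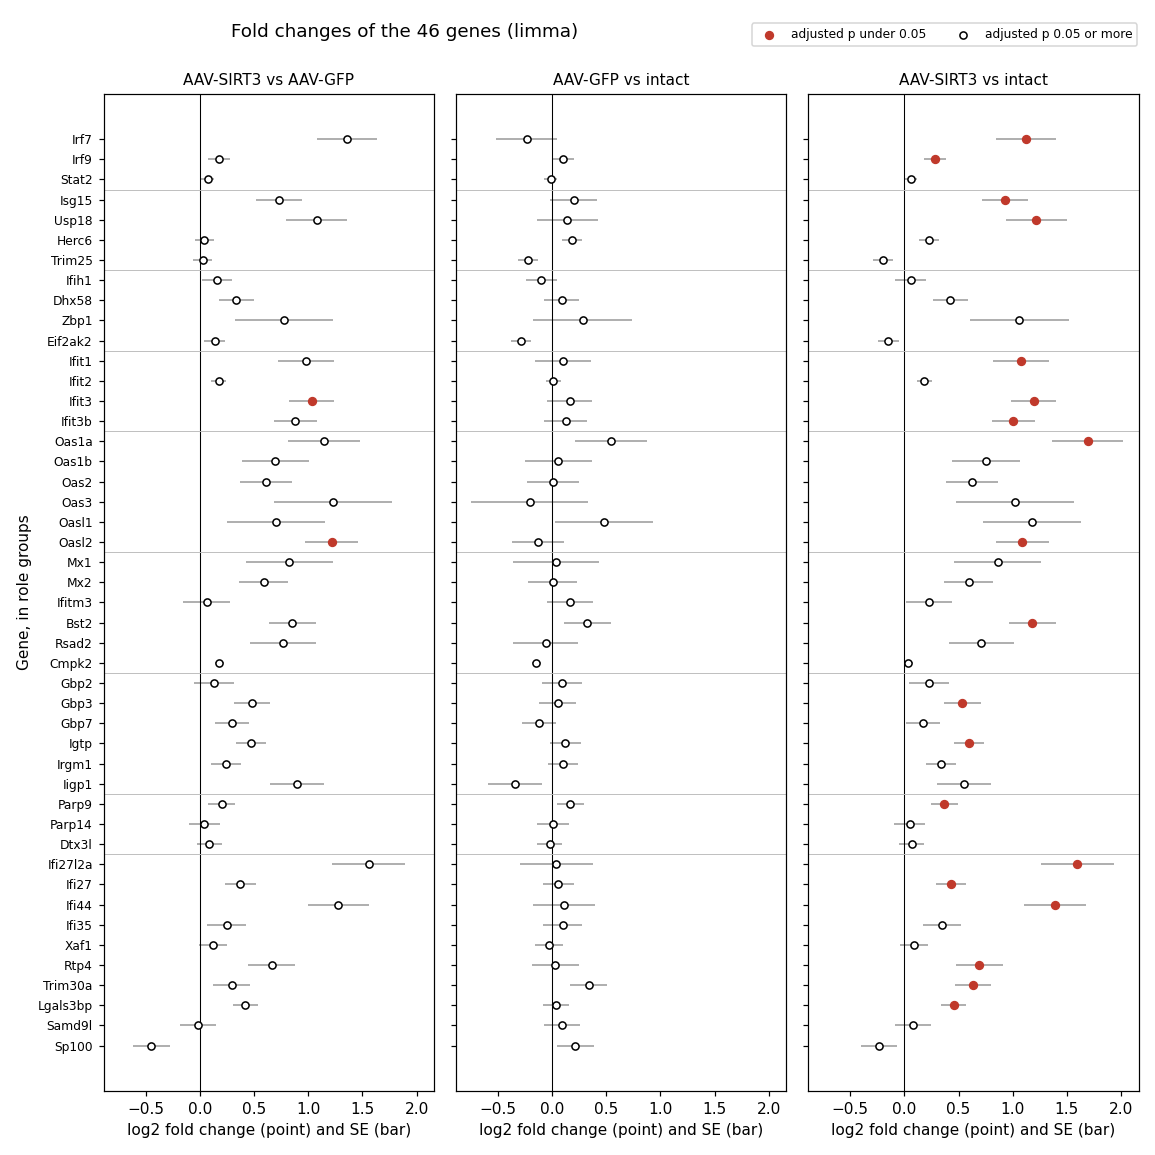
Points give the log2 fold change of each of the 46 genes (vertical axis, ordered by role) and bars its SE in limma, for each of the 3 comparisons, with called genes marked. In AAV-SIRT3 against intact 19 genes are marked, in AAV-SIRT3 against AAV-GFP 2, and in AAV-GFP against intact 0.

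Among the transcription factors, Irf7 varied most and Stat2 least. Irf7, the factor that amplifies interferon production, had a lowest, median and highest value of 82.5, 112 and 156 normalised reads in intact, 74.9, 85.9 and 151 in AAV-GFP, and 149, 195 and 642 in AAV-SIRT3. The lowest AAV-SIRT3 library fell just under the highest library of each other group, and replicate 6 stood far above the next library at 347. Its log2 fold change was 1.12 ± 0.278 (SE) against intact (limma adjusted p = 0.00733) and 1.35 against AAV-GFP (adjusted p = 0.0602). Irf9, the DNA-binding part of ISGF3, had 623, 645 and 690 in intact, 639, 683 and 812 in AAV-GFP, and 657, 748 and 1157 normalised reads in AAV-SIRT3. Of the 6 AAV-SIRT3 libraries, 5 lay above the highest intact library and 2, replicate 6 and replicate 4 at 835, above the highest AAV-GFP library. The log2 fold change was 0.28 ± 0.0998 (SE) against intact (limma adjusted p = 0.0485) and 0.18 against AAV-GFP (adjusted p = 0.407). That call was lost on leaving out any 1 of 13 libraries, the 6 intact ones, AAV-GFP replicates 1, 3, 4 and 6 and AAV-SIRT3 replicates 1, 4 and 6, with adjusted p-values over all 18 such fits from 0.0255 to 0.101. Stat2, the other ISGF3 part in the list, had 1427, 1532 and 1562 in intact, 1369, 1514 and 1665 in AAV-GFP, and 1456, 1517 and 1911 normalised reads in AAV-SIRT3. The 3 medians of Stat2 lay within the range of each group, and its log2 fold change was 0.06 against intact (limma adjusted p = 0.501).

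In the ISG15 system the modifier and its protease rose against intact, and the 2 ligase genes were not called. Isg15, the ubiquitin-like protein joined to other proteins in the antiviral state, had 58.6, 71.7 and 85.6 normalised reads in intact (lowest, median, highest), 58.7, 83.4 and 101 in AAV-GFP, and 85.5, 130 and 299 in AAV-SIRT3. The lowest AAV-SIRT3 library was level with the highest intact library and below the highest AAV-GFP library. Its log2 fold change was 0.93 ± 0.216 (SE) against intact (limma adjusted p = 0.00493) and 0.73 against AAV-GFP (adjusted p = 0.138). The Isg15 transcript was 95.2% identical to AC151275.1 over 63.8% of its length in GENCODE M21, so reads may be divided between them. Usp18, which removes ISG15 and damps signalling at the interferon receptor, had 54, 62.9 and 91.8 in intact, 58.2, 71.8 and 89.5 in AAV-GFP, and 94.3, 122 and 484 normalised reads in AAV-SIRT3. No AAV-SIRT3 library of Usp18 overlapped either other group. Its log2 fold change was 1.22 ± 0.278 (SE) against intact (limma adjusted p = 0.00442) and 1.08 against AAV-GFP (adjusted p = 0.108). Herc6, the ISG15 ligase of mouse, and Trim25, a ubiquitin ligase acting in RNA sensing, had log2 fold changes of 0.04 and 0.03 against AAV-GFP and of 0.23 and -0.19 against intact. None of the 4 sensors passed the test in limma. Zbp1, which binds Z-form nucleic acid and can start cell death, had the largest log2 fold change of them, 1.06 against intact, and it averaged 13.0 ± 6.46 normalised reads in intact and 34.0 ± 33.4 in AAV-SIRT3 (SD, n = 6), of which replicate 6 held 100.1. For Dhx58 (LGP2) the value was 0.43, for Ifih1 (MDA5) 0.06, and for Eif2ak2 (PKR, the kinase that stops translation on double-stranded RNA) -0.15.

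The IFIT genes, whose proteins bind viral RNA and block its translation, lie in a cluster on chromosome 19, with Ifit2 at chr19:34550694-34576419, Ifit3 at chr19:34583531-34588731, Ifit3b at chr19:34607970-34613401 and Ifit1 at chr19:34640871-34650009 (GENCODE M21, GRCm38). Promoter sequences are shown for them because genes of this cluster differed in response, with the ISRE core in capitals where a script found it. The core searched was GAAA, then 2 bases of any kind, then GAAA again, or on the other strand TTTC, 2 bases of any kind and TTTC, in the 250 bases before each gene start in the RefSeq promoter table (GRCm38.p6). For Ifit3 these are chr19:34583279-34583528, for Ifit2 chr19:34550444-34550693, both on the plus strand.
Ifit3: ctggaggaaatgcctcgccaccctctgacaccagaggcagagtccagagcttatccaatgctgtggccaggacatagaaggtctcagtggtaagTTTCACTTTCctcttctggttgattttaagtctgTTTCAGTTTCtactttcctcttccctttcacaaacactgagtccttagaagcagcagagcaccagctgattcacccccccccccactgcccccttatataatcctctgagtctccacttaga
Ifit2: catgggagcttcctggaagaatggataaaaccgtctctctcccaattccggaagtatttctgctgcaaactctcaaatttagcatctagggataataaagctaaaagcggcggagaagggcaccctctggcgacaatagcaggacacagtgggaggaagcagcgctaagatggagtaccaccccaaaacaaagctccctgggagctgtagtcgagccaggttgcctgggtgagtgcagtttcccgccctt
Ifit3 held 2 matches and Ifit2 none. Ifit1 also held 2 cores, shown on the minus strand with 10 bases on each side as the windows chr19:34640775-34640804 and chr19:34640794-34640823, where the windows overlap and the cores do not.
Ifit1, farther from the start: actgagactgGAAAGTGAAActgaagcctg
Ifit1, nearer to the start: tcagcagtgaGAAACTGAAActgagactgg
The 2 core windows of Ifit3b carry the same letters as those of Ifit3.

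Ifit3 had a lowest, median and highest value of 411, 492 and 567 normalised reads in intact, 436, 560 and 724 in AAV-GFP, and 773, 941 and 2551 in AAV-SIRT3. Every AAV-SIRT3 library was above every other library, and replicate 6 was followed by replicates at 1399 and below. The log2 fold change was 1.03 ± 0.206 (SE) against AAV-GFP (limma adjusted p = 0.0487) and 1.19 ± 0.206 against intact (adjusted p = 0.000936), the first of these calls being lost without any 1 of the 13 libraries named above. Ifit1 had 151, 212 and 300 in intact, 131, 250 and 323 in AAV-GFP, and 287, 400 and 1096 normalised reads in AAV-SIRT3. The lowest AAV-SIRT3 library of Ifit1 overlapped the top of both other groups, and the log2 fold change was 1.08 ± 0.258 (SE) against intact (limma adjusted p = 0.0058) and 0.98 against AAV-GFP (adjusted p = 0.108). Ifit3b had 197, 295 and 402 in intact, 271, 308 and 356 in AAV-GFP, and 406, 491 and 1023 normalised reads in AAV-SIRT3. Its AAV-SIRT3 libraries lay above all others, by a narrow gap to the highest intact library, with log2 fold changes of 1.00 against intact (limma adjusted p = 0.00177) and 0.88 against AAV-GFP (adjusted p = 0.0708). The Ifit3 and Ifit3b transcripts were 97.8% identical over 97.4% of the Ifit3 transcript in GENCODE M21, so the division of reads between the pair is uncertain. Ifit2, by contrast, had medians of 1074, 1079 and 1185 normalised reads in intact, AAV-GFP and AAV-SIRT3, with log2 fold changes of 0.18 and 0.17 against intact and AAV-GFP (limma adjusted p = 0.0536 and 0.234). Against intact, Ifit2 was called higher by edgeR (adjusted p = 0.0418) and DESeq2 (adjusted p = 0.0365). The contrast thus lies in the size of the change, and whether Ifit2 passes depends on the method.

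The difference between Ifit3 and Ifit2 within a library, on the log2 scale, was chosen after their values were seen and is a description with no test. Its mean was -1.15 ± 0.167 in intact mice, -1.003 ± 0.233 with AAV-GFP and -0.15 ± 0.525 with AAV-SIRT3 (SD, n = 6).

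**Figure D3:**
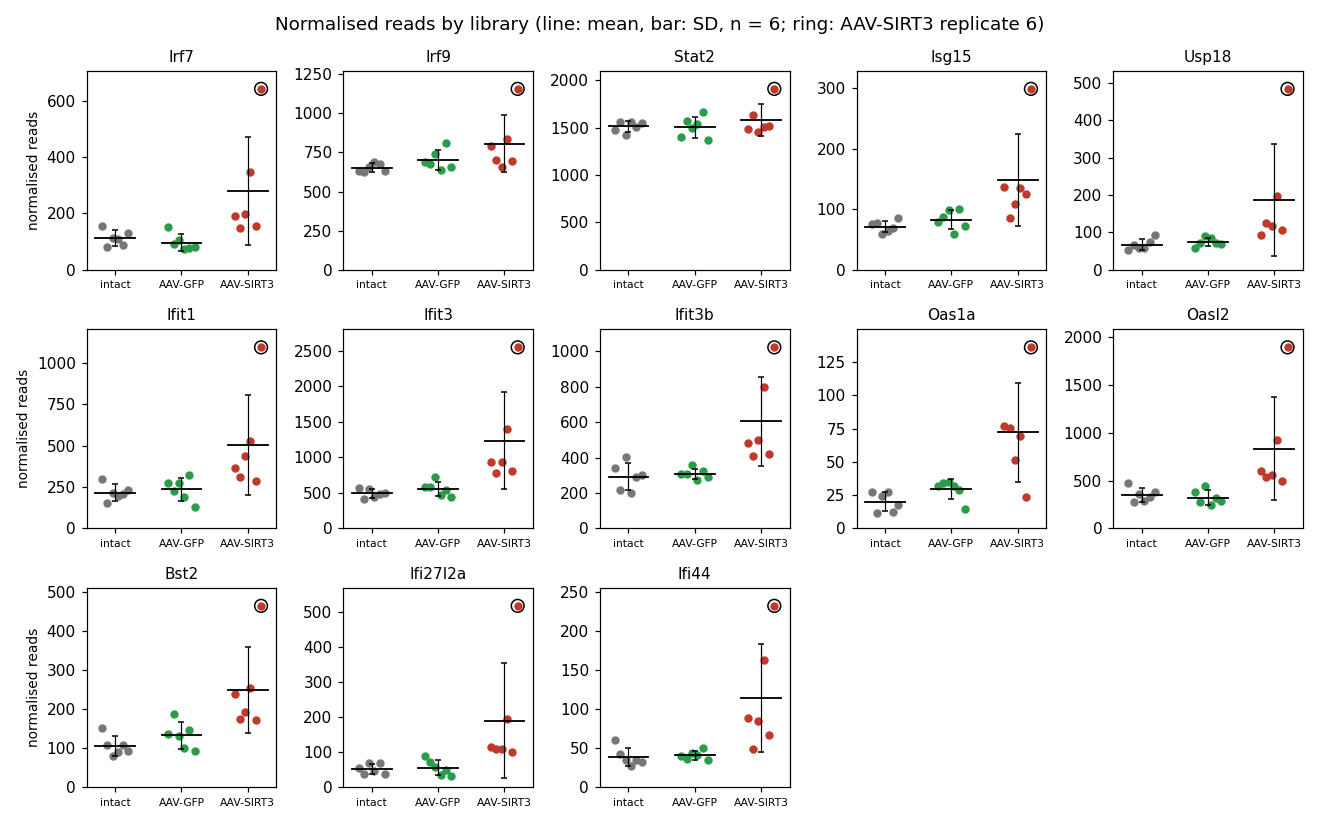
Each panel plots the normalised reads of 1 gene (vertical axis, starting at 0) in the 6 libraries of each group (horizontal axis), with a line for the mean, a bar for the SD and a ring around AAV-SIRT3 replicate 6. The AAV-SIRT3 points of Ifit3 and Oasl2 lie above all points of the other groups, while those of Stat2 other than replicate 6 overlap them.

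Of the oligoadenylate synthetase family, which makes the messenger that activates RNase L, Oasl2 and Oas1a rose against intact. Oasl2 (chr5:114896936-114912234, GRCm38) had 280, 341 and 474 normalised reads in intact (lowest, median, highest), 244, 299 and 443 in AAV-GFP, and 493, 580 and 1896 in AAV-SIRT3. All AAV-SIRT3 libraries exceeded all others, the second highest being 929. Its log2 fold change was 1.22 ± 0.242 (SE) against AAV-GFP (limma adjusted p = 0.0487) and 1.09 ± 0.242 against intact (adjusted p = 0.00382). The call against AAV-GFP was lost without any 1 of the 13 libraries named above. The ISRE core was not found in the 250 bases before the Oasl2 start, chr5:114896684-114896933, which are printed because this gene had a call in both comparisons without a match.
Oasl2: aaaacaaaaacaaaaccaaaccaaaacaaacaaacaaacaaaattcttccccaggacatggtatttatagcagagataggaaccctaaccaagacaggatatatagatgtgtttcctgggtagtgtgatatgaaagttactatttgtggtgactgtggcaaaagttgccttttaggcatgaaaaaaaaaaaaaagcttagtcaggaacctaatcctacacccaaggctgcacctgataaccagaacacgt
Oas1a, an enzyme of the family, had 11.8, 21.1 and 27.4 normalised reads in intact, 14.7, 31.6 and 35.1 in AAV-GFP, and 23.7, 72.4 and 136 in AAV-SIRT3. Its lowest AAV-SIRT3 library lay inside the range of both other groups. The log2 fold change was 1.69 ± 0.329 (SE) against intact (limma adjusted p = 0.00174), the largest of the 46, and 1.15 against AAV-GFP (adjusted p = 0.132). Its transcript was 97.5% identical to Oas1g over 98.7% of its length, so reads may be divided between them. Oas1b, Oas2, Oas3 and Oasl1 had log2 fold changes from 0.62 to 1.18 against intact and from 0.61 to 1.23 against AAV-GFP, with no limma call. Oas3 was the least abundant of the 46, at 6.45 ± 3.92 normalised reads in intact and 14.2 ± 9.04 in AAV-SIRT3 (SD, n = 6), and the only gene with at least 10 normalised reads in under 6 of the 12 intact and AAV-GFP libraries. It thus passed the filter for testing only with AAV-SIRT3 libraries counted, the group where its mean was highest. Its fold changes, which stay in the counts over the 46 genes, are therefore no support for a rise.

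Among the 6 antiviral effectors Bst2 rose against intact. Bst2, the tetherin that holds budding virus at the membrane, had 80.1, 99.9 and 151 normalised reads in intact, 92.3, 133 and 188 in AAV-GFP, and 171, 215 and 465 in AAV-SIRT3. Its AAV-SIRT3 libraries lay above all intact libraries and were overlapped only by AAV-GFP replicate 2, at 188. The log2 fold change was 1.18 ± 0.216 (SE) against intact (limma adjusted p = 0.00126) and 0.85 against AAV-GFP (adjusted p = 0.108). The dynamin-like GTPases Mx1 and Mx2 had values of 0.86 and 0.60 against intact and Rsad2 (viperin) 0.71, without a limma call, and without replicate 6 these were 0.47, 0.40 and 0.44. GENCODE M21 lists Mx2, and Oas1b of the family above, as polymorphic pseudogenes, and the strain of these mice is not given. The Mx2 transcript was 95.3% identical to Mx1 over 34.0% of its length, so reads may be divided between them. Mx1 ran from 11.9 to 48.6 normalised reads in AAV-SIRT3 replicates 1 to 5 and reached 125 in replicate 6, while intact libraries held 11.4 to 24.4. Ifitm3, which blocks viral entry, had 0.23 against intact and 0.06 against AAV-GFP. Cmpk2, a mitochondrial nucleotide kinase, had little spread. It had 1683, 1754 and 1876 normalised reads in intact, 1513, 1594 and 1717 in AAV-GFP, and 1744, 1797 and 1917 in AAV-SIRT3 (lowest, median, highest). The AAV-SIRT3 libraries lay above all AAV-GFP libraries and overlapped the intact range, with log2 fold changes of 0.18 against AAV-GFP (limma adjusted p = 0.0794), 0.03 against intact and -0.15 for AAV-GFP against intact (adjusted p = 0.0648).

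The interferon-induced GTPases act in defence against intracellular pathogens, and 2 of 6 rose. Igtp (0.60, limma adjusted p = 0.00497) and Gbp3 (0.53, adjusted p = 0.0286) rose against intact on the log2 scale, and without AAV-SIRT3 replicate 6, which held 834 normalised reads of Gbp3 against at most 442 in the others, they were at 0.46 and 0.34. The Gbp3 call was lost without intact replicate 2 or 4, at an adjusted p of at most 0.0628. Gbp2, Gbp7, Irgm1 and Iigp1 had values from 0.17 to 0.55, without a call. Parp9, a partner of Dtx3l in ADP-ribosylation and ubiquitination, had 0.37 (limma adjusted p = 0.0376), and its call was lost without intact replicates 2, 4, 5 or 6 or AAV-SIRT3 replicates 1, 4 or 6 (adjusted p up to 0.0975). Dtx3l and Parp14 had 0.07 and 0.05. The exons of Parp9 and Dtx3l overlap on opposite strands, and those of Irf7 and Phrf1 likewise, while Igtp overlaps Irgm2 and Irf9 overlaps Rnf31 on the same strand. The strand setting of the counting is not given in the sources used here, so reads of such pairs may not be separable.

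Of the 10 other genes, Ifi27l2a, Ifi27, Ifi44, Rtp4, Trim30a and Lgals3bp rose against intact. Ifi27l2a, a small membrane protein of the interferon response, had 36.3, 49.5 and 69.4 normalised reads in intact (lowest, median, highest), 31.4, 52.7 and 86.7 in AAV-GFP, and 98.9, 110 and 516 in AAV-SIRT3. The AAV-SIRT3 libraries lay above all others also without replicate 6, where the highest was 193. Its log2 fold change was 1.60 ± 0.336 (SE) against intact (limma adjusted p = 0.00276) and 1.56 against AAV-GFP (adjusted p = 0.0708). Ifi44 had 27.0, 34.2 and 59.5 in intact, 34.4, 40.0 and 49.8 in AAV-GFP, and 48.7, 86.7 and 232 normalised reads in AAV-SIRT3. The lowest AAV-SIRT3 library of Ifi44 overlapped both other groups, and the log2 fold change was 1.39 ± 0.284 (SE) against intact (limma adjusted p = 0.00225) and 1.28 against AAV-GFP (adjusted p = 0.0708). Lgals3bp, a secreted glycoprotein, was among the more abundant genes, at 1291 ± 65.5 normalised reads in intact mice, 1327 ± 117 with AAV-GFP and 1826 ± 552 with AAV-SIRT3 (SD, n = 6), of which replicate 6 held 2896, with a log2 fold change of 0.46 against intact (limma adjusted p = 0.00897). Ifi27, Trim30a and Rtp4 had log2 fold changes of 0.43, 0.63 and 0.69 against intact (limma adjusted p = 0.0331, 0.0114 and 0.027), and of 0.26, 0.49 and 0.46 without AAV-SIRT3 replicate 6. The Ifi27 call was lost without intact replicates 2, 3, 4 or 6 (adjusted p up to 0.0613), and that of Rtp4 without intact replicate 3 or AAV-SIRT3 replicates 4 or 6 (up to 0.0617). Ifi35, Xaf1, Samd9l and Sp100 had no call, with Sp100, a nuclear body protein, at -0.23 against intact and -0.45 against AAV-GFP.

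Larger log2 fold changes were found among the less abundant genes. Per kilobase of exon, the intact level ran from 0.91 normalised reads for Oas3 to 733 for Ifi27, with Ifitm3 at 614, Lgals3bp at 454, Cmpk2 at 425, Ifit3 at 282, Ifit2 at 278 and Stat2 at 255. Across the 46 genes, Spearman's rho between the intact level in normalised reads and the log2 fold change was -0.66 against intact and -0.61 against AAV-GFP, a description over genes that share libraries and are not independent. The intact libraries supply both the level and the base of the fold change against intact, which can lower that rho. In AAV-GFP against intact, where no interferon gene was called in limma, rho was -0.28. The 15 genes with an intact mean under 100 had a median log2 fold change of 0.93 against intact and 0.77 against AAV-GFP. The 14 from 100 to under 300 had 0.57 and 0.48, and the 17 at 300 or more had 0.18 and 0.16. Ifit3 and Oasl2 departed from that order, being in the last class with log2 fold changes of 1.19 and 1.09 against intact.

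**Figure D4:**
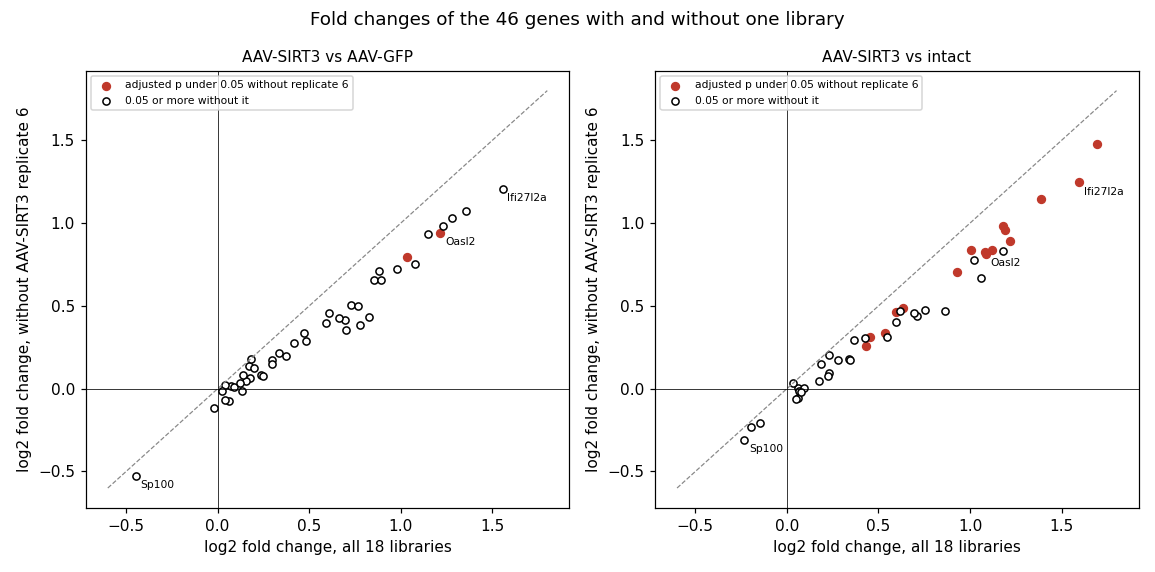
Each point is 1 of the 46 genes, with its log2 fold change over all 18 libraries (horizontal axis) and without AAV-SIRT3 replicate 6 (vertical axis), for AAV-SIRT3 against AAV-GFP and against intact, filled where the limma adjusted p without that library was under 0.05. Most points lie below the line of equal values, and the median falls from 0.45 to 0.28 against AAV-GFP and from 0.54 to 0.33 against intact.

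The ISRE core was found before 15 of the 33 genes that had an entry in the promoter table (45.5%), against 3.46% of 27025 genes. The core of the gamma-activated site, TTCNNNGAA, which reads alike on both strands, was found before 6 of the 33 (18.2%), against 8.13%. The 13 genes with no entry include Usp18, Mx1 and Ifi27l2a. Among the 15 with an ISRE core, 9 rose against intact, with a median log2 fold change of 0.71 and values from 0.06 to 1.69. Among the 18 without, 5 rose, Irf7, Irf9, Oasl2, Ifi44 and Lgals3bp, with a median of 0.21. Of the 13 with no entry, 5 rose, with a median of 0.62. In that comparison 11.3% of all tested genes were called higher, and whether the core goes with the response was not tested. The windows of 4 genes are printed to show the spread of response among matches, 3 that rose against intact and Stat2, which did not pass. Each is read on the minus strand. They are Isg15 at chr4:156200865-156200906, Oas1a at chr5:120907526-120907555, Bst2 at chr8:71537577-71537612 and Stat2 at chr10:128270266-128270295.
Isg15: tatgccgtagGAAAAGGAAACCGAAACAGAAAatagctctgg
Oas1a: cccttctcggGAAATGGAAACTGAAAatct
Bst2: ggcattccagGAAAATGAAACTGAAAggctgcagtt
Stat2: ctagggaaagGAAACTGAAAccagggtgcg
Overlapping cores were found before Isg15, Oas1a, Bst2 and Gbp3, which rose against intact, and before Irgm1, which was not called. Single cores stood before Igtp and Trim30a, which rose, and before Stat2, Gbp2, Gbp7, Oas3 and Rsad2, which were not called in limma. A match describes the letters of the window and not a bound site.

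On the inducing side, 38 pathway genes were listed and found, of which 31 had values high enough to test. Interferon transcripts themselves were at or near 0. Ifna4 and Ifnl3 were listed at 0 in every library, and Ifnb1, Ifna2, Ifnk and Ifng had at most 2.98 normalised reads in any. In AAV-SIRT3 against AAV-GFP none of the 31 was called in limma, and edgeR called 0. At an unadjusted p under 0.05, 2 were higher and 6 lower, where 8.13% and 7.12% of all tested genes were. Against intact, where 11.3% of all tested genes were called higher and 10.3% lower, genes that rose in AAV-SIRT3 (limma) included the factors Irf8 (0.45) and Irf3 (0.28), the interferon gamma receptor chain Ifngr1 (0.20) and the RNA sensor Tlr7 (0.54), of which Irf8, Irf3 and Ifngr1 also rose in AAV-GFP against intact (limma adjusted p = 0.0319, 0.0379 and 0.0465), where 0.823% of all tested genes were called higher. These AAV-GFP calls held in 13, 11 and 6 of the 18 fits without 1 library. That of Irf8 was lost without AAV-GFP replicates 3 or 5 or intact replicates 3, 4 or 5, and that of Irf3 without AAV-GFP replicates 2, 3, 5 or 6 or intact replicates 1, 3 or 4. That of Ifngr1 was lost without AAV-GFP replicates 1 to 5, AAV-SIRT3 replicates 2, 3 or 4 or intact replicates 1, 3, 4 or 5, with an adjusted p of up to 0.104. The 4 that fell were Ifnar1, the receptor chain of type I interferon, at -0.18 (limma adjusted p = 0.00215), the RNA-editing enzyme gene Adar at -0.19, the nucleotide hydrolase gene Samhd1 at -0.21 and the STAT inhibitor gene Pias1 at -0.13. The Pias1 call was lost without AAV-SIRT3 replicates 2, 5 or 6 or intact replicates 1, 3 or 4 (limma adjusted p up to 0.0811). A share of 4 in 31 called lower lies near that of all tested genes and is not a result about the pathway.

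Markers of cell types moved beside these values as follows, and their part in the result was not tested. The summed level of 10 microglia and phagocyte markers ran from 10335 to 12148 normalised reads in intact, 11445 to 13923 in AAV-GFP and 10953 to 12033 in AAV-SIRT3, with replicate 6 the highest AAV-SIRT3 library. In AAV-SIRT3 against AAV-GFP, 2 of these 10 fell, Clec7a at -1.67 and Gpnmb at -2.08 (limma adjusted p = 0.0168 and 0.00198), and none rose. Over all tested genes 0.0772% were called lower. The Clec7a call was lost without AAV-GFP replicates 1, 3 or 5 or AAV-SIRT3 replicate 5 (adjusted p up to 0.066). In AAV-GFP against intact 6 of the 10 rose (limma), where 0.823% of all tested genes were called higher. They were Aif1, Cd68, Itgax, Clec7a, Lgals3 and Gpnmb. The calls of Aif1 and Cd68 held in 12 and 15 of the 18 fits without 1 library. In AAV-SIRT3 against intact, the comparison with 19 interferon genes called, 5 of the 10 rose and none fell (limma), Aif1 at 0.49, Tmem119 at 0.38, Lgals3 at 1.00, Itgax at 1.23 and Clec7a at 0.92. There 11.3% of all tested genes were called higher and 10.3% lower. Without AAV-SIRT3 replicate 6 the calls of Itgax and Clec7a were lost, at log2 fold changes of 1.004 and 0.74, as they were without some other libraries, namely AAV-SIRT3 replicates 3 or 5 or intact replicates 4 or 6 for Itgax and AAV-SIRT3 replicates 2, 3 or 4 or intact replicates 2 or 4 for Clec7a. Of 7 astrocyte markers 2, Serpina3n and C3, fell in AAV-SIRT3 against AAV-GFP and none rose (limma). In AAV-GFP against intact 3 of the 7, these and Gfap, rose, the Gfap call holding in 10 of the 18 fits without 1 library. None of the 7 was called in AAV-SIRT3 against intact. Serpina3n averaged 1687, 3172 and 1680 normalised reads in intact, AAV-GFP and AAV-SIRT3, and C3 averaged 228, 599 and 229. The 8 T cell markers, 4 of them tested and none called, summed to 117 to 226 in intact, 153 to 264 in AAV-GFP and 182 to 329 normalised reads in AAV-SIRT3. Of 6 thalamic markers, which mark tissue beside the dissection, 4 rose in AAV-SIRT3 against intact and none was called against AAV-GFP. The shares of all tested genes called higher in these comparisons were 11.3% and 0.036%. With a score of these thalamic markers as a covariate, 6 interferon genes were called against AAV-GFP and 18 against intact, where 13 and 791 of 19442 tested genes were called higher. In AAV-SIRT3 replicate 6, the 5 B and plasma cell markers summed to 530 normalised reads, of which Jchain, the joining chain of secreted immunoglobulin, held 489, and no other library passed 189. The 6 neutrophil and monocyte markers summed to 303 there, of which Ly6c2 held 207, and to between 40.3 and 230.1 in the AAV-GFP libraries. Microglia and dopaminergic markers in replicate 6 summed to 12033 and 40684, within the range of the other 17 libraries, but the highest and the lowest of the AAV-SIRT3 group. The plasmacytoid dendritic cell markers Siglech and Ccr9 summed to 882 in replicate 6, the highest of all 18 libraries, against at most 795 in intact and 857 in AAV-GFP, and neither was called. Of 5 endothelial markers 1 was called higher and 2 lower in AAV-SIRT3 against intact (limma). There 1 of 4 oligodendrocyte markers was called higher and 2 of 5 choroid plexus markers lower, against 11.3% and 10.3% of all tested genes. No marker of these types was called in the other comparisons. Choroid plexus sums ran from 894 to 47955 normalised reads in intact, 562 to 42342.5 in AAV-GFP and 545 to 1713 in AAV-SIRT3, with medians of 1449, 1065 and 737. No marker of any list was at 0 in every library.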

How the data were processed

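The authors deposited 1 table of normalised signal per gene for 18 libraries, which its name describes as HTSeq read counts normalised with DESeq2. Reads were aligned with HISAT2 2.1.0 to mm10, and DESeq2 1.34.0 was used, per the submitters' processing notes. The annotation and strand setting are not given in the sources used here. Dividing each deposited column by the value of 1 read gave whole reads for 100% of values (relative tolerance 1e-06). The size factors ran from 0.877 to 1.17. Intact replicate 4 and AAV-SIRT3 replicate 4 have a step near 1, so the steps show less there. A nameless entry (at most 0.000289% of reads) was left out, and 0 columns lacked a sample. No pair of replicates agreed within sampling noise (chi-square divided by its degrees of freedom was 8.27 to 36.6). Reads carry no molecular identifiers, so depth speaks of counting error only.

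Groups came from the sample titles, and the study's design text gives 6 mice per group. Tests used limma 3.58.1 in R 4.3.3 on log2(value + 1), which understates folds of low genes. Genes with at least 10 normalised reads in at least 6 of 18 libraries were tested, 19442 in all, in 1 fit of the 3 groups with a trended prior and Benjamini-Hochberg adjustment at 0.05. All 46 interferon genes passed, Oas3 only with AAV-SIRT3 libraries counted. Alternatives were TMM, quantile scaling, pseudocounts of 0.5 and 10, no filter, means of 50 or more, DESeq2 1.42.0 and edgeR 4.0.16 on recovered reads, 2-group fits, a replicate block, a thalamus score and omission of each library. The procedure was tested on simulated data. Values by library are given for genes called in AAV-SIRT3 against AAV-GFP, the 10 largest called changes against intact and Isg15, Irf7, Irf9, Stat2, Usp18 and Ifit1. Cmpk2, Lgals3bp, Zbp1 and Mx1 were added after their values were seen. The genes and lists were chosen with earlier results of these data known. Positions, transcript identity and exon lengths come from GENCODE M21 (GRCm38), and promoters from RefSeq (GRCm38.p6). The values of 1 pathway gene are not reported here.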

Additional observations from a re-analysis of the deposited data

Results flagged for a closer look

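Of 138 groups of 6 values, 1 per gene and group, 23 held a highest or lowest library whose gap to its nearest neighbour exceeded the 95% critical value of Dixon's ratio. Chance marks about 1 in 20 groups, 6.9 here, and genes share libraries. In 19 of the 23 the library was AAV-SIRT3 replicate 6, as the highest of its group. Among genes of signalling and ISG15 these were Irf9 at 1157 normalised reads, Isg15 at 299 and Usp18 at 484. The IFIT and OAS genes were Ifit1 at 1096, Ifit3 at 2551, Oasl2 at 1896, Oas1b at 124 and Oas2 at 93.4. The sensor Zbp1 was at 100.1, and the effectors were Mx1 at 125, Bst2 at 465 and Rsad2 at 252. Of the GTPases, Gbp3 was at 834 and Irgm1 at 1072. The remaining genes were Ifi27l2a at 516, Ifi27 at 2673, Ifi35 at 214, Trim30a at 485 and Lgals3bp at 2896. In AAV-GFP replicate 6, Oas1a (14.7, the next being 29.1) and Trim30a (152, the next being 249) were lowest by such a gap. In intact libraries Dtx3l was highest in replicate 1 at 424 (next 319) and Ifi35 in replicate 5 at 124 (next 95).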

How the results depend on the processing

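Depth was not what limited the abundant genes, but Oas3, Oasl1 and Zbp1 rest on few reads. For AAV-SIRT3 against AAV-GFP, all genes called numbered 22, against 310 with DESeq2, 8 in a fit of the 2 groups and 13 with a replicate block. Interferon genes called numbered 2, against 0 with no filter, a mean of at least 50, a fit of the 2 groups or a replicate block, 4 with edgeR, 15 with DESeq2 and 6 with a thalamus score. Pathway genes called went from 0 to 1 with DESeq2. No pairing by replicate number was seen in the values. Same-numbered libraries correlated between -0.0953 and 0.175, with 1 of 18 pairs over 0.1, and 2 of 36 library comparisons were best with their own number. Such correlations cannot show whether the mice were paired in the experiment, and the labels give no pairing. For AAV-GFP against intact, all genes called numbered 358, against 164 with no filter, 1008 with DESeq2, 199 in a fit of the 2 groups and 37 with a thalamus score. Interferon genes went from 0 to 1 with DESeq2, and pathway genes from 3 to 7 with DESeq2 and to 0 with no filter, a fit of the 2 groups or a thalamus score. For AAV-SIRT3 against intact, the thalamus score took all genes from 4214 to 1468 and pathway genes from 9 to 5. Leaving out each library gave 5 to 861, 129 to 686 and 3279 to 4633 genes called in AAV-SIRT3 against AAV-GFP, AAV-GFP against intact and AAV-SIRT3 against intact, interferon genes 0 to 11, 0 to 1 and 15 to 23, and pathway genes 0 to 1, 0 to 5 and 8 to 10. The count of 861 came without AAV-GFP replicate 2 and that of 5 without AAV-SIRT3 replicate 5. Median log2 fold changes ranged from 0.28 to 0.50, 0.03 to 0.11 and 0.33 to 0.63. The sign of small log2 fold changes turned for Samd9l (0.0111 with quantile scaling against AAV-GFP) and, with a thalamus score in AAV-GFP against intact, for Iigp1 (0.0137), Irf7 (0.117) and Oasl2 (0.255). It turned on leaving out 1 library against AAV-GFP for Gbp2 (-0.0132 to 0.239), Herc6 (-0.00365 to 0.0894), Ifitm3 (-0.0855 to 0.216), Parp14 (-0.0687 to 0.111), Samd9l (-0.121 to 0.0902) and Trim25 (-0.0528 to 0.0626), against intact for Dtx3l (-0.0119 to 0.153), Ifih1 (-0.0541 to 0.114), Parp14 (-0.0597 to 0.120) and Samd9l (-0.0196 to 0.185), and for AAV-GFP against intact for Ifi27l2a (-0.110 to 0.178), Ifit1 (-0.00358 to 0.256) and Stat2 (-0.0403 to 0.0161). The cause of these shifts was not tested. A 300-base window raised the ISRE count from 15 to 18.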
